A study of Mus musculus with 32 samples.

Results

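The transcripts described here are 76 piRNA precursors, the long RNAs from which PIWI-interacting RNAs (piRNAs) are cut. They are every gene of the juvenile expression table whose identifier marks it as a precursor, 76 of its 20368 genes. The table held genes with at least 3 TPM (transcripts scaled to a fixed total per sample) in at least 1 mouse, and of the 214 precursors to which reads had been aligned, the other 138 stayed below that level in every juvenile mouse. RNA came from germ cells of 28 male C57BL/6J mice, each mouse a separate sample, with 3 mice at 8 days post-partum (dpp) and 5 mice at each of 10, 12, 14, 16 and 18 dpp. Further mice of 8 dpp had been left out by the authors after inspection, as they matched poorly with samples of their age. A further 4 samples held adult pachytene and diplotene spermatocytes, enriched by sedimentation at unit gravity, each pooled from 6 males of 9 weeks. The labels give no treatment and 1 strain for all mice, and the RNA was polyadenylated. The files give TPM without read counts, so the depth behind each value is unknown. Values after ± are SDs over the mice of an age (n = 3 at 8 dpp and n = 5 at the other ages) or over the 4 adult samples.

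Piwi proteins carry piRNAs, and in the male germ line they silence transposons and are needed for fertility. The precursors are transcribed by RNA polymerase II and are capped and polyadenylated before they are cut. In the mouse, many precursors that overlap protein-coding genes are made before the pachytene stage, whereas most long intergenic precursors are made in pachytene spermatocytes, where the transcription factor A-MYB (Mybl1) drives them. The first wave of germ cells in juvenile testes is nearly synchronous, so older mice hold later meiotic stages as well.

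The names of the precursors gave a class. Of the 214, 114 carried the identifier of a gene (called genic here) and 100 a chromosome and cytogenetic band (called intergenic here). The 76 members were 16 genic precursors, 14% of that class, and 60 intergenic precursors, 60% of theirs. The level of 3 TPM was reached only in mice of 16 or 18 dpp by 60 members, 55 intergenic and 5 genic, so these had to differ between ages to be in the table. Counts over the members therefore describe them and do not stand for all 214 precursors. At the edge of the table, pi-10-qB4-6488 and pi-9-qA1-178 reached 3.01 TPM in their highest mouse, while pi-3-qA3-2052 reached 2.99 and the precursor of 1700006A11Rik 2.79 TPM and stayed outside it.

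The summed TPM of the members was 57.3, 60 and 66 TPM in the 8 dpp mice and 863, 784, 766, 565 and 534 TPM in the 18 dpp mice. No mouse of an earlier age reached the lowest 18 dpp mouse, the highest of them being a 16 dpp mouse at 448 TPM. Between these ages the sum was 58.3 ± 4.73 TPM at 10 dpp, 91.7 ± 24.9 TPM at 12 dpp, 133 ± 23.2 TPM at 14 dpp and 318 ± 81.7 TPM at 16 dpp. The 18 dpp mean was thus 11.5 times the 8 dpp mean, 2.21 times that at 16 dpp. The filter favoured this rise, since 60 members reached 3 TPM only in mice of 16 or 18 dpp. Over all 214 precursors the sum was 98.4 ± 4.07 TPM at 8 dpp and 764 ± 157 TPM at 18 dpp. For the members, the adult samples summed to between 1439 and 1568 TPM. They held enriched cells pooled from adult males, another kind of sample, so adult and juvenile levels are set side by side without a test. As a part of all TPM, the members made up 0.00611% at 8 dpp, 0.0702% at 18 dpp and 0.153% in adult cells.

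**Figure D1:**
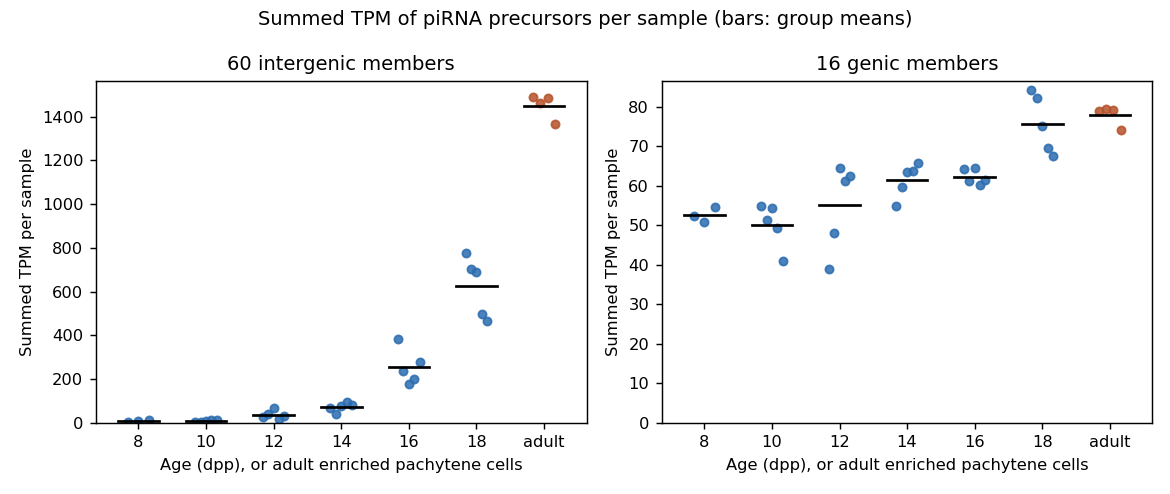
Summed TPM per sample of the 60 intergenic members (left) and the 16 genic members (right) by age in dpp and in adult cells, each point a mouse or adult sample and each bar a group mean, on vertical axes that differ and start at 0. Intergenic sums lie between 5.05 and 11.3 TPM at 8 dpp and between 466 and 778 TPM at 18 dpp, while genic sums lie between 50.9 and 54.7 TPM and between 67.6 and 84.2 TPM at the same ages.

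Nearly all of the added TPM was intergenic. The intergenic sum had a mean of 8.47 ± 3.16 TPM at 8 dpp against 626 ± 137 TPM at 18 dpp, 73.9 times as much, whereas the genic sum had 52.6 ± 1.96 against 75.7 ± 7.41 TPM, 1.44 times as much. At 8 dpp, 11 of 16 genic members but 1 of 60 intergenic members had a mean of at least 1 TPM, and 22 intergenic members were listed at 0 in all 3 mice. The filter favoured these contrasts, since 55 intergenic but 5 genic members reached 3 TPM only in mice of 16 or 18 dpp. Sums by class were not made over all 214 precursors. At 18 dpp all 76 had a mean of at least 1 TPM, the lowest being 1.22 and the median 4.35 TPM. The 10 highest members made up 52.9% of the sum at that age. The mice of 18 dpp spread more for intergenic members, with a median coefficient of variation of 28.7%, than for genic members, with 15.7%.

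Markers of other cell types also changed over these ages. From bulk RNA alone, fewer cells of a type and less RNA per cell cannot be told apart. The authors also staged germ cells of each mouse by immunolabelling, and those cell counts were not used here. Summed spermatocyte markers (8 genes) lay at 212 to 320 TPM at 8 dpp, 3020 to 4610 TPM at 18 dpp and 8470 to 8850 TPM in adult cells, and Ldhc, the lactate dehydrogenase of the germ line, gave most of the later sums. Without Ldhc they were 211 to 318, 1451 to 1655 and 1747 to 1936 TPM. Of the 8 genes, 7 rose from 8 to 18 dpp, and Hist1h1t, with a mean of 0.398 TPM at 18 dpp, was too low to be tested. However, from 18 dpp to adult cells the mean of Sycp3 went from 502 to 375 TPM, of Sycp1 from 231 to 106 TPM and of Hormad1 from 291 to 189 TPM, where that of Ldhc went from 2400 to 6850 TPM. Summed spermatogonium markers (6 genes) lay at 497 to 587, 205 to 282 and 8.48 to 10.8 TPM. Markers of Sertoli cells, the somatic cells of the tubule (8 genes), were at 7030 to 7900, 3590 to 4700 and 344 to 503 TPM, a sum that is mostly Clu. Of these 8 genes, 5 fell and 2 rose from 8 to 18 dpp, the 2 being Gata1 (means 43.7 and 68.5 TPM) and Rhox5 (36.6 and 68.4 TPM). Spermatid markers (6 genes) summed to 0.99 to 7.19 TPM at 18 dpp but to 862 to 1170 TPM in the adult samples. The part of these cell types in the precursor levels was not tested.

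Ages were compared by limma on log2(TPM + 1), and a precursor is said to rise or fall where its p, adjusted over all 20368 genes, was under 0.05. A difference among the ages passed in 71 of 76 members and in 77.6% of all genes. From 8 to 18 dpp, 66 members rose and 4 fell, where 31.8% of all genes rose and 36.3% fell. The median difference was 2.21 on the log2(TPM + 1) scale over the members and -0.09 over all genes. By class, 59 of 60 intergenic members rose and 0 fell, while 7 of 16 genic members rose and 4 fell. Their median differences were 2.39 and 0.27. The intergenic member that did not pass was pi-15-qE1-3710. Where a precursor was listed at 0 at the earlier age, the size of its difference depends on the pseudocount of 1.

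Precursors that never reached 3 TPM were included in a fit without a filter, with 60085 genes and the 209 precursors above 0 in some mouse. There a difference among the ages passed in 129 precursors and in 32.8% of all genes. From 8 to 18 dpp 104 precursors rose, against 14.9% of all genes, and 30 fell, against 15.8%. Of 96 intergenic precursors 86 rose and 1 fell, and of 113 genic precursors 18 rose and 29 fell.

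The steps between neighbouring ages differed in size. From 8 to 10 dpp, 0 members rose and 0 fell by limma, with 1 and 1 at an unadjusted p under 0.05, where 0.977% of all genes rose and 0.226% fell. From 10 to 12 dpp, 11 rose and 2 fell, against 12% and 9.39% of all genes, and the rises numbered 30 with a pseudocount of 0.1 and 29 with only the 2 ages in the fit. From 12 to 14 dpp, 2 rose and 0 fell, against 0.157% and 0.0147%, and at an unadjusted p under 0.05 the numbers were 21 and 0. The count of 2 ranged from 0 to 5 as each mouse was left out in turn. From 14 to 16 dpp, 55 rose and 3 fell, against 12.7% and 11.3%. From 16 to 18 dpp, 64 rose and 0 fell by limma (1 at an unadjusted p under 0.05), against 23.4% and 30.6%. Of the 66 members that rose over the whole span, 42 had their largest step into 18 dpp, 20 into 16 dpp, 1 into 14 dpp and 3 into 12 dpp. The filter favoured late steps, since 36 members reached 3 TPM only in 18 dpp mice and 60 only in 16 or 18 dpp mice. The largest step was not counted over all genes. The median intergenic member stood at 3.54%, 9.11% and 38.7% of its own 18 dpp mean at 12, 14 and 16 dpp, and the median genic member at 85.7%, 79% and 77.7%.

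**Figure D2:**
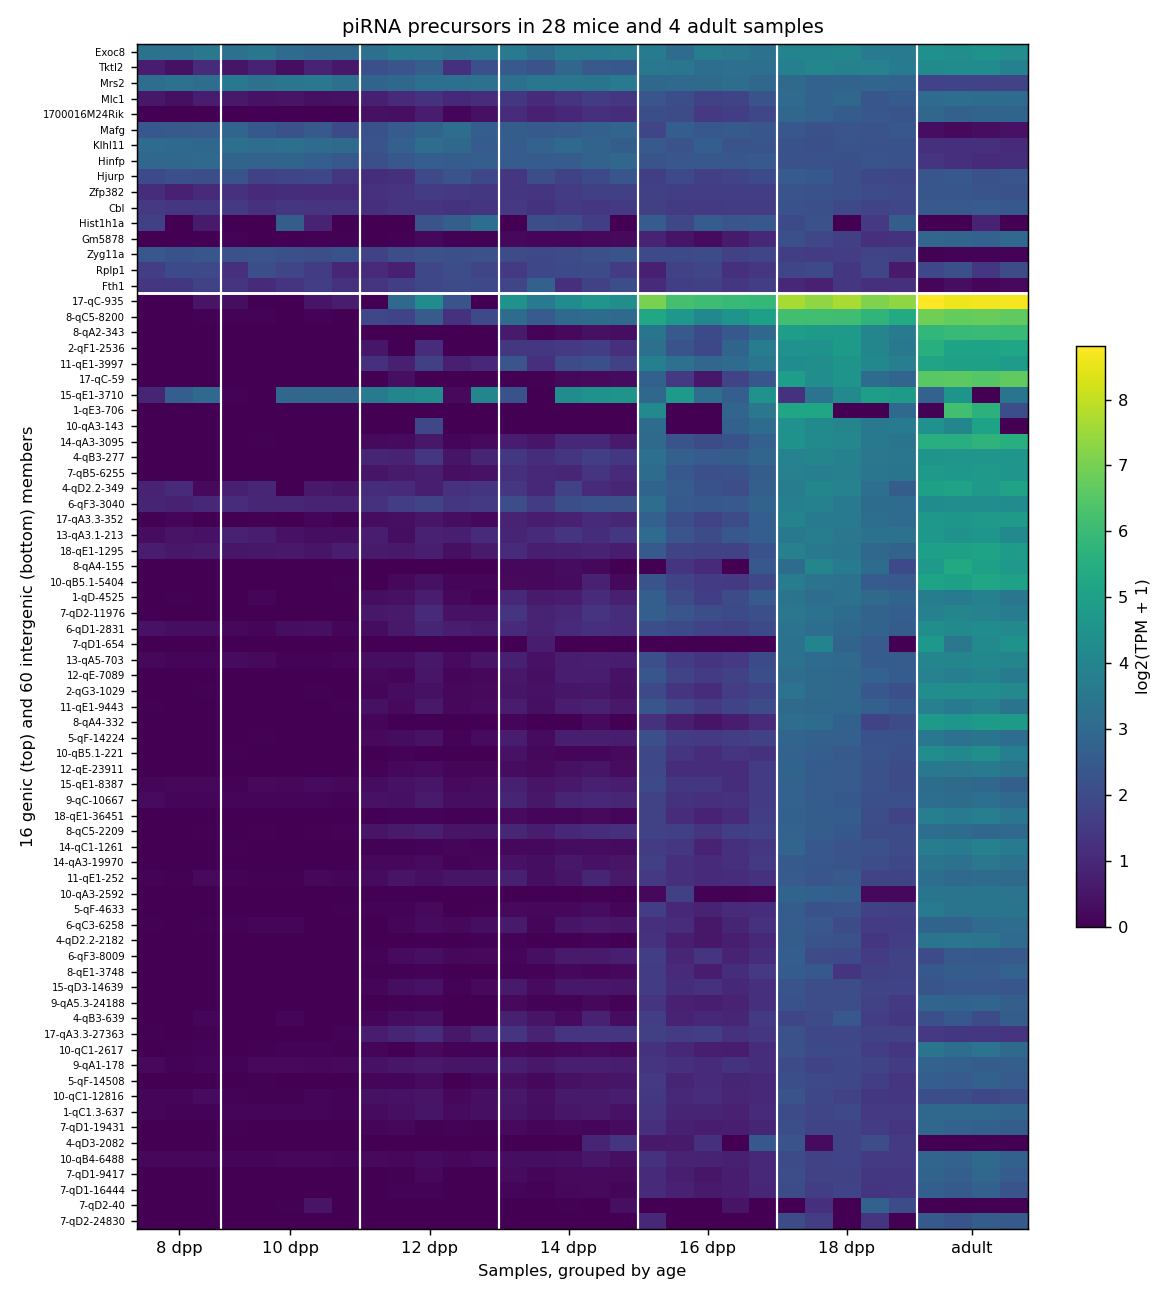
Expression of the 76 members (rows, 16 genic above the white line and 60 intergenic below it, each class ordered by 18 dpp mean) in 28 mice and 4 adult samples (columns, grouped by age), coloured by log2(TPM + 1). Most intergenic rows are dark through 14 dpp and brighter from 16 dpp on, the genic rows Exoc8, Mrs2, Klhl11 and Hinfp are bright at 8 dpp, and a few rows switch between 0 and high values among samples of 1 age.

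The intergenic precursor pi-17-qC-935 had the highest mean of all members at 16 and 18 dpp and in adult cells. It read 0, 0 and 0.37 TPM at 8 dpp, 0.25, 0, 0, 0.42 and 0.65 TPM at 10 dpp and 0, 7.01, 18.3, 3.88 and 0 TPM at 12 dpp. It then read 21.8, 11.6, 18.4, 23.2 and 19.4 TPM at 14 dpp, 132, 73, 65.7, 61.8 and 58 TPM at 16 dpp and 201, 163, 204, 136 and 161 TPM at 18 dpp. The 12 dpp mice ran from 0 to a value within the 14 dpp range, and from 14 dpp on no neighbouring ages overlapped. The difference from 8 to 18 dpp was 7.28 on the log2(TPM + 1) scale (standard error 0.579, adjusted p = 1.69e-11, limma). The steps into 12, 14, 16 and 18 dpp passed at an adjusted p of 0.0221, 0.0421, 0.00522 and 0.0469 (limma), of which that into 14 dpp was lost with the replicate block, with only the 2 ages in the fit and without a filter. Among the 20368 genes its 18 dpp mean ranked 944. It made up 25 ± 3.58% of the members' summed TPM at 18 dpp, and the sum without it was 529 ± 124 TPM against 61 ± 4.25 TPM at 8 dpp.

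The second-highest member at 18 dpp was pi-8-qC5-8200. It was at 0.06 TPM or less in every mouse of 8 and 10 dpp and read 2.67, 2.44, 4.76, 1.4 and 2.85 TPM at 12 dpp. At 14, 16 and 18 dpp it read 7.7, 4.74, 7.22, 7.64 and 7.05 TPM, 38.2, 25.2, 16.4, 22.8 and 30.4 TPM and 70.6, 69.4, 67.7, 53.9 and 40.5 TPM. After 10 dpp the only overlap of neighbouring ages was between the highest 12 dpp mouse and the lowest 14 dpp mouse. The step from 10 to 12 dpp, 1.83 on the log2(TPM + 1) scale (standard error 0.197, adjusted p = 1.32e-07, limma), was the largest upward change of any member at that step. With pi-17-qC-935 it was 1 of the 2 members that rose from 12 to 14 dpp, by 1.08 (adjusted p = 0.0201, limma). Both of these calls were lost with the replicate block, with only the 2 ages in the fit and without a filter, each of which left 0 members higher at 14 than 12 dpp. From 8 to 18 dpp it rose by 5.89 (standard error 0.228, adjusted p = 3.36e-17, limma).

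Other intergenic members also rose into 12 dpp at lower levels. The member pi-11-qE1-3997 was listed at 0 in all mice of 8 and 10 dpp and at 1.29, 0.71, 2.17, 0.72 and 1.04 TPM at 12 dpp (difference 1.09 on the log2(TPM + 1) scale, standard error 0.196, adjusted p = 1.89e-04, limma), and reached 18.5, 19.7, 22.6, 16.5 and 12.5 TPM at 18 dpp. Likewise pi-4-qB3-277 went from 0 in all of these mice to 0.42 to 1.6 TPM at 12 dpp, 4.77 to 8.4 TPM at 16 dpp and 10.1 to 15.3 TPM at 18 dpp. In both, the mice of 10 and 12 dpp did not overlap. The member pi-17-qA3.3-27363 rose at this step too, from 0.06 TPM or less to 0.49 to 1.24 TPM (difference 0.82, standard error 0.142, adjusted p = 1.12e-04, limma). Its 12 dpp mean was 30.6% of its 18 dpp mean, and it had 2.24 to 3.54 TPM at 18 dpp and 1.48 to 1.78 TPM in adult cells.

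Some leading members, named for their high 18 dpp mean, came late. The member pi-8-qA2-343 was listed at 0 in every mouse through 12 dpp and read 0.57, 0.05, 0.18, 0.32 and 0.25 TPM at 14 dpp. It read 9.72, 4.52, 2.99, 4.38 and 6.64 TPM at 16 dpp and 29.6, 26.8, 26.2, 15.2 and 11.3 TPM at 18 dpp, with no overlap, a difference of 1.78 on the log2(TPM + 1) scale (standard error 0.223, adjusted p = 1.62e-06, limma). The member pi-17-qC-59, named for the same band as pi-17-qC-935, was at 0.3 TPM or less in every mouse through 14 dpp, where pi-17-qC-935 had at least 11.6 TPM in every 14 dpp mouse. It read 5.66, 1.77, 0.49, 2.46 and 4.07 TPM at 16 dpp and 29.1, 18.8, 22.8, 7.68 and 6.26 TPM at 18 dpp, again without overlap (difference 2.17, standard error 0.324, adjusted p = 6.68e-06, limma). Mice 4 and 5 were the lowest of the 18 dpp mice for both of these late members. Every 18 dpp mouse stood above every 16 dpp mouse for 48 of the 76 members, against 13.2% of all genes. The members pi-2-qF1-2536 and pi-14-qA3-3095 had 1.7 ± 0.292 and 0.72 ± 0.249 TPM at 14 dpp, 6.7 ± 3.78 and 4.64 ± 1.7 TPM at 16 dpp, and 19 ± 6.04 and 15 ± 5.06 TPM at 18 dpp. Both rose into 16 dpp (adjusted p = 3.36e-04 and 1.92e-07, limma) and again into 18 dpp (adjusted p = 5.52e-05 and 1.74e-06, limma).

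The intergenic members were named for 37 bands on 16 chromosomes, and 41 of them shared a band with another member. In qC of chromosome 17 the higher member had 10.2 times the 18 dpp mean of the lower, in qC5 of chromosome 8 14.1 times, and in qC1 of chromosome 10 1.06 times. The 4 members of qD1 of chromosome 7 all rose from 8 to 18 dpp, with 18 dpp means between 2.16 and 6.88 TPM. The files give names and no coordinates, so the distance between members of a band was not determined.

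At the 2 oldest juvenile ages, 1 mouse was the highest for most members. At 16 dpp, mouse 1 was the highest for 58 of 76 members, and its spermatocyte markers summed to 2638 TPM, against 1376 to 1947 TPM in the others (1447 TPM against 845 to 1093 TPM without Ldhc). At 18 dpp, mouse 1 was the highest for 55 members and mouse 5 the lowest for 49. These counts were not made over all genes, so whether they are particular to the members is not known. Spermatocyte markers of the 18 dpp mice summed to 4420, 4612, 4547, 3040 and 3022 TPM and Sertoli markers to 3683, 3593, 3763, 4683 and 4700 TPM, so mice 4 and 5 were lowest for the former and highest for the latter. Ldhc, at 2917, 3038, 2891, 1589 and 1543 TPM, was also lowest in mice 4 and 5, as were Pgk2, Spo11 and Piwil1. Without Ldhc the spermatocyte sums were 1503, 1574, 1655, 1451 and 1479 TPM, again lowest in mice 4 and 5. Not every spermatocyte marker was lowest in these mice. Sycp3 read 444, 475, 532, 511 and 549 TPM and Hormad1 253, 295, 293, 305 and 309 TPM, both highest in mouse 5 and lowest in mouse 1. The part of cell composition in the spread between mice was not tested.

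A few members switched between 0 and high values within an age. The member pi-1-qE3-706 was listed at 0 in every mouse through 14 dpp, then read 17.4, 0, 0, 6.33 and 10.2 TPM at 16 dpp, 35.4, 35.9, 0, 0 and 7.11 TPM at 18 dpp and 0.04, 69.3, 49.5 and 3.38 TPM in adult cells. Its rise from 8 to 18 dpp (2.68 on the log2(TPM + 1) scale, standard error 0.939, adjusted p = 0.0135, limma) was lost with only these ages in the fit (adjusted p = 0.11, limma). The member pi-10-qA3-143 read 7.77, 0, 0, 5.74 and 7.65 TPM at 16 dpp, 20.9, 17.2, 15.1, 10.7 and 11.5 TPM at 18 dpp and 21, 15.4, 33.8 and 0 TPM in adult cells, so adult sample 4 alone was listed at 0. The member pi-15-qE1-3710 read 0.9, 5.21 and 7.1 TPM at 8 dpp, 1.47, 9.32, 17.2, 28.9 and 26.6 TPM at 18 dpp and 5.89, 22.6, 0.02 and 9.86 TPM in adult cells. Its ages overlapped, and neither the difference from 8 to 18 dpp (1.52, standard error 1.03, adjusted p = 0.195, limma) nor any difference among the ages passed (adjusted p = 0.272, limma). In all, 5 members were at 0 in at least 1 mouse of 18 dpp and at 3 TPM or more in another. The same held for 4 at 16 dpp and 1 in the adult samples. These numbers were not counted over all genes.

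Of the genic members, the precursor of Exoc8 (pi-ENSMUSG00000074030), whose protein is a subunit of the exocyst, the complex that tethers secretory vesicles, had the highest level at 8 dpp. It read 8.94, 9.09 and 10.5 TPM at 8 dpp and 14.6, 14.8, 15.6, 11.6 and 11.2 TPM at 18 dpp without overlap, a rise of 0.46 on the log2(TPM + 1) scale (standard error 0.15, adjusted p = 0.00818, limma). The precursor of Tktl2 (pi-ENSMUSG00000025519), a transketolase-like gene, rose most of the genic members. It read 0.65, 0.33 and 1.1 TPM at 8 dpp, 3.45, 3.97, 5.38, 1.31 and 3.49 TPM at 12 dpp, 10.7, 9.89, 8.02, 8.31 and 8.42 TPM at 16 dpp and 12.9, 15.6, 13.3, 13.9 and 11.7 TPM at 18 dpp. Its 12 dpp mice all stood above the 10 dpp mice, which reached 0.82 TPM (difference 1.5, standard error 0.19, adjusted p = 1.80e-06, limma). It too was named for a large step by 14 dpp. From 8 to 18 dpp the precursors of 1700016M24Rik, Mlc1, Gm5878, Zfp382 and Cbl, a ubiquitin ligase, also rose, by 2.58, 2.19, 1.62, 1.11 and 0.58 on the log2(TPM + 1) scale.

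The 4 members that fell from 8 to 18 dpp were genic. In none of them did the 2 ages overlap, but they were picked by this same difference. The share of all genes without such overlap was not counted. The precursor of Klhl11 (pi-ENSMUSG00000048732), a Kelch-like gene, read 7.37, 7.11 and 6.96 TPM at 8 dpp and 3.64, 3.49, 3.86, 3.69 and 3.66 TPM at 18 dpp and fell by 0.8 on the log2(TPM + 1) scale (standard error 0.144, adjusted p = 1.99e-05, limma). That of Hinfp (pi-ENSMUSG00000032119), a transcription factor of histone H4 genes, read 6.6, 6.68 and 7.03 TPM and 3.52, 3.67, 3.48, 3.92 and 3.59 TPM and fell by 0.75 (standard error 0.121, adjusted p = 4.94e-06, limma). That of Zyg11a (pi-ENSMUSG00000034645), of a family of ubiquitin ligase substrate receptors, read 4.31, 3.61 and 4.13 TPM and 2.1, 1.99, 2.01, 2.49 and 2.34 TPM and fell by 0.66 (standard error 0.122, adjusted p = 3.39e-05, limma). In adult cells these stood lower still, at 1.27 ± 0.13, 1.28 ± 0.186 and 0.055 ± 0.0129 TPM. The precursor of Mrs2 (pi-ENSMUSG00000021339), a magnesium channel of mitochondria, read 7.81, 8.66 and 7.91 TPM at 8 dpp and 7.22, 5.9, 6.02, 6.3 and 6.01 TPM at 18 dpp, with higher means in between (9.75 ± 0.948 TPM at 10 dpp and 9.87 ± 1.02 TPM at 14 dpp). It fell by 0.33 (standard error 0.109, adjusted p = 0.0102, limma), a call lost with median-of-ratios scaling (-0.17, adjusted p = 0.143, limma) and without 8 dpp mouse 2 (-0.28, adjusted p = 0.0511, limma).

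**Figure D3:**
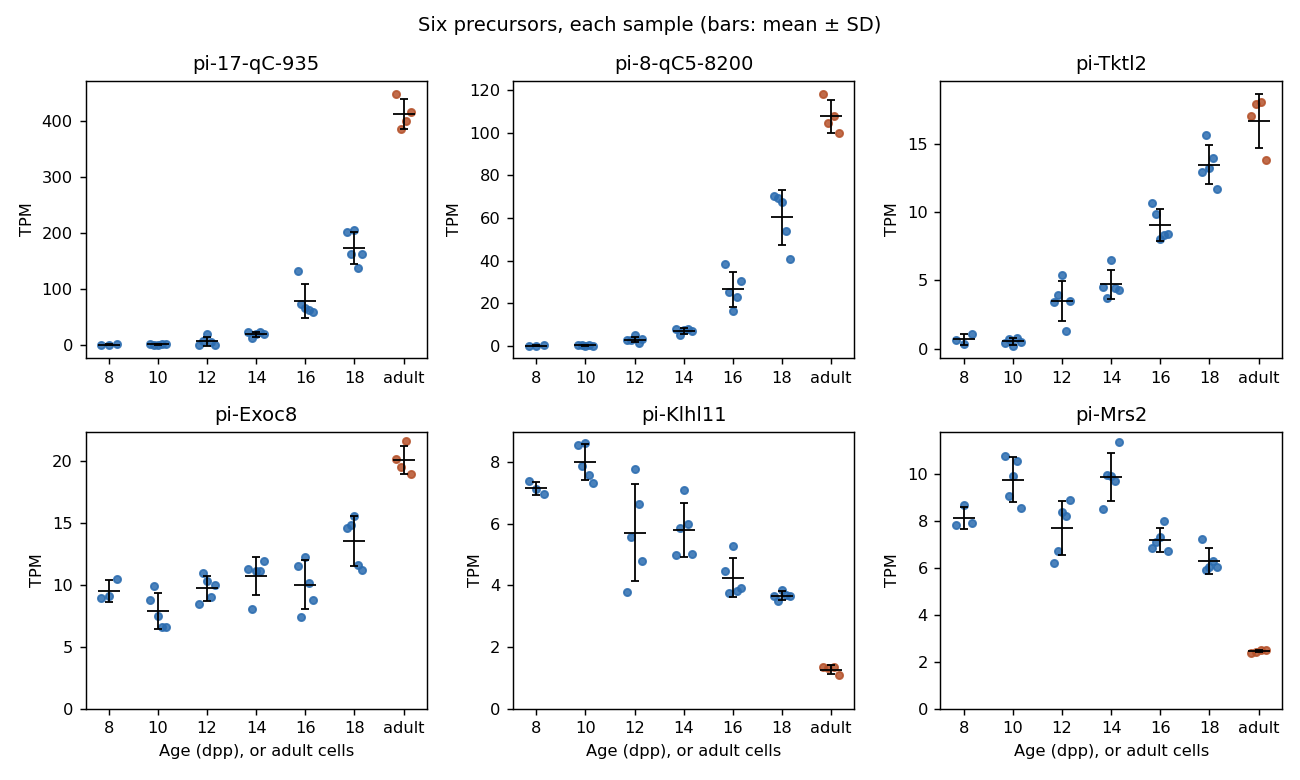
TPM of 6 precursors in every sample (points) by age, with group mean and SD (bars), on separate linear axes that include 0. The precursors pi-17-qC-935, pi-8-qC5-8200 and that of Tktl2 climb from near 0, that of Exoc8 is present from 8 dpp, and those of Klhl11 and Mrs2 are lower at 18 than 8 dpp and lowest in adult cells.

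The other 5 genic members did not pass between 8 and 18 dpp. They were the precursors of Hjurp, a chaperone of the centromeric histone, Rplp1, a ribosomal stalk protein, Fth1, the ferritin heavy chain, Hist1h1a, a linker histone, and Mafg, a small Maf factor. Their differences were 0.08, -0.3, -0.38, 0.88 and -0.15 on the log2(TPM + 1) scale, with adjusted p = 0.789, 0.41, 0.155, 0.279 and 0.486 (limma).

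Promoters of host genes are shown because A-MYB is known to drive pachytene precursors and its motif can be looked for where a start site is at hand, which for the intergenic members was not the case. RefSeq promoters on GRCm38.p6 were found for 10 of the 15 genic members with an Ensembl host. Of the 4 that fell, Klhl11 had an entry, and Hinfp, Zyg11a and Mrs2 were not matched. The lines give the 250 bases before the start, 5′ to 3′ on the gene's strand, of Klhl11 (chr11:100472783-100473032, minus strand), Tktl2 (chr8:66511490-66511739, plus strand), Mlc1 (chr15:88978554-88978803, minus strand) and Exoc8 (chr8:124897706-124897955, minus strand), of which the last 3 were chosen after their values were seen. Capitals mark CAACNG and TAACNG, 2 MYB motifs, and CCAAT, on either strand.
Klhl11: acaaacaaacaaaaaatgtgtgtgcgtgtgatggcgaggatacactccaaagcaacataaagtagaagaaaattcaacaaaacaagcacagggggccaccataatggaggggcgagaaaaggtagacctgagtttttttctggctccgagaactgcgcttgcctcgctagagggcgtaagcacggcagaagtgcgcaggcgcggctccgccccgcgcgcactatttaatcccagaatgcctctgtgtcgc
Tktl2: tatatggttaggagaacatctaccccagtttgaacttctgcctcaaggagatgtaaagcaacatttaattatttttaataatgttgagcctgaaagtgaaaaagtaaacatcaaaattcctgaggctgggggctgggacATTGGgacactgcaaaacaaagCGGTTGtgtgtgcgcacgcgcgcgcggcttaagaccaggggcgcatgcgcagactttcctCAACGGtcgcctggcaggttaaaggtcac
Mlc1: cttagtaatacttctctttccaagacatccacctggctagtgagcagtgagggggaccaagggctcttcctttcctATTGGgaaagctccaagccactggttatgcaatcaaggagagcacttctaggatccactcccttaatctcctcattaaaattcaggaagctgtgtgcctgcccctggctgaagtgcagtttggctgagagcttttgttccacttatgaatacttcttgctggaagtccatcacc
Exoc8: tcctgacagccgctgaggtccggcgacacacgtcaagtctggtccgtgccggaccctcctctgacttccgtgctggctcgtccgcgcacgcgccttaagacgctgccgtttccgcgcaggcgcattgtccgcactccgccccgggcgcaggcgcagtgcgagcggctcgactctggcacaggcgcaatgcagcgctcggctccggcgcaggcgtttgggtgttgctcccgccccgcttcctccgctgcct
The Tktl2 window held CAACNG at 89 and 29 bases before the start and CCAAT at 111 bases, and the Mlc1 window CCAAT at 174 bases. The Klhl11 and Exoc8 windows held none of these letters. Of the 10 hosts 4 held a MYB motif and 5 a CCAAT, where 43.1% and 33.8% of all 32851 promoters did. A match describes the letters and is not a site.

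Each genic precursor carries the identifier of a gene, called its host here, though whether they overlap was not determined. In the deposited gene table the host's value included that of the precursor. For the 109 genic precursors with an Ensembl host, the host's row equalled its own transcripts plus the precursor within 0.1 TPM, so the hosts' levels here are from their own transcripts. At 18 dpp the precursor made up 11% of the TPM of both for Klhl11, 16.4% for Hinfp, 19.1% for Zyg11a, 27.7% for Tktl2 and 71.4% for Exoc8. Reads that fit both were divided by the authors' estimation, which bears on every value of this comparison.

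Several precursors and hosts moved in the same direction from 8 to 18 dpp. Klhl11 (chr11:100462614-100472741, minus strand, GRCm38) had 55.4 ± 3.2 and 29.7 ± 2.84 TPM and fell by 0.88 on the log2(TPM + 1) scale (standard error 0.0942, adjusted p = 4.58e-09, limma). Hinfp (chr9:44292440-44305671, minus strand) had 30.8 ± 0.961 and 18.5 ± 2.69 TPM and fell by 0.72, and Zyg11a (chr4:108181738-108218048, minus strand) had 15.4 ± 0.905 and 9.27 ± 2 TPM and fell by 0.69. Tktl2 (chr8:66511756-66518335, plus strand) had 3.89 ± 0.555 and 35.2 ± 9.3 TPM and rose by 2.85, where its precursor rose by 3.12. Exoc8 (chr8:124893108-124897705, minus strand) had 1.25 ± 0.336 and 5.43 ± 1.22 TPM and rose by 1.5 (standard error 0.199), against 0.46 for its precursor, while Mlc1 and Gm5878 rose by 3.61 and 4.36. The scale compresses changes at low TPM, and the difference between host and precursor was not tested.

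Mrs2 was the pair in which both passed in opposite directions. The host (chr13:24987483-25020379, minus strand) had 18.6 ± 2.79 TPM at 8 dpp, 36.6 ± 7.02 TPM at 18 dpp and 49.8 ± 2.63 TPM in adult cells, and rose by 0.93 on the log2(TPM + 1) scale from 8 to 18 dpp (standard error 0.139, adjusted p = 1.51e-06, limma). The precursor's part of the TPM of both was 30.4% at 8 dpp, 14.7% at 18 dpp and 4.7% in adult cells. Since the fall of the precursor was lost under 2 alternatives, as given above, the opposite direction rests on those settings.

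**Figure D4:**
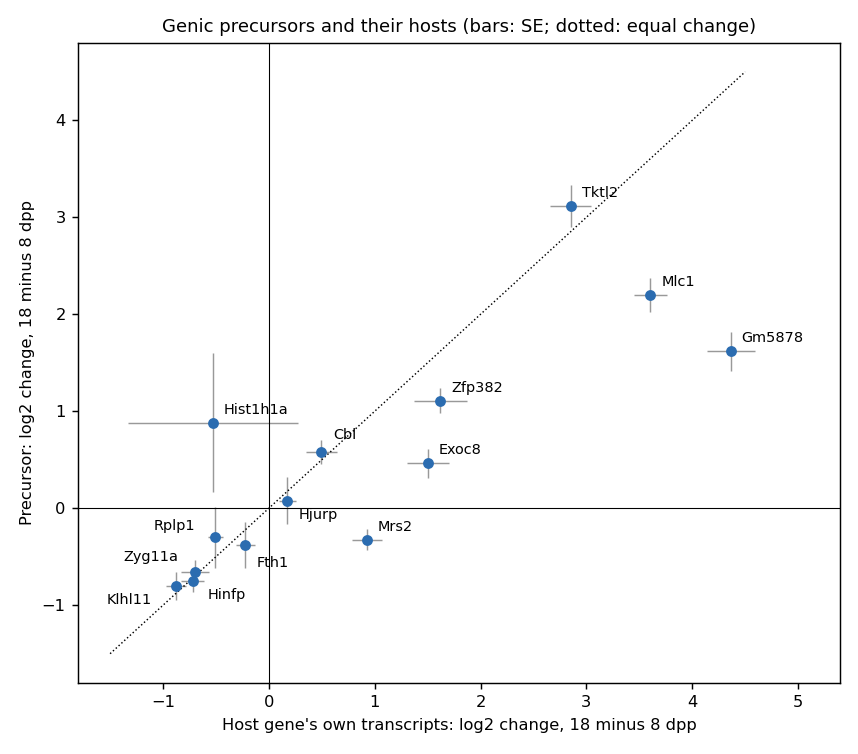
Difference from 8 to 18 dpp in log2(TPM + 1) of genic precursors (vertical axis) against that of their hosts' own transcripts (horizontal axis), with standard errors as bars and equal change as a dotted line; Mafg, whose own transcripts were listed at 0, is not drawn. Klhl11, Hinfp, Zyg11a and Tktl2 lie near the line, Exoc8, Mlc1 and Gm5878 lie below it, and Mrs2 has a host above 0 and a precursor below 0.

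In the adult samples, 65 of the 76 members had a mean of at least 3 TPM, against 59.8% of the genes of the juvenile table. Of these, 57 were intergenic and 8 genic. The adult mean exceeded the 18 dpp mean for 56 of 60 intergenic and 9 of 16 genic members, and for 31.8% of all genes, with a median ratio of 2.16 and 1.15. Every adult sample stood above every 18 dpp mouse for 52 members, against 22.3% of all genes. The adult samples read 449, 385, 400.1 and 416 TPM for pi-17-qC-935 and 118, 105, 108 and 100.05 TPM for pi-8-qC5-8200. For pi-17-qC-59, whose ratio to 18 dpp was the highest at 5.59, they read 93.6, 95.4, 88.8 and 100.3 TPM. The 4 adult samples lay close together, with a median coefficient of variation of 8.93% over the members.

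**Figure D5:**
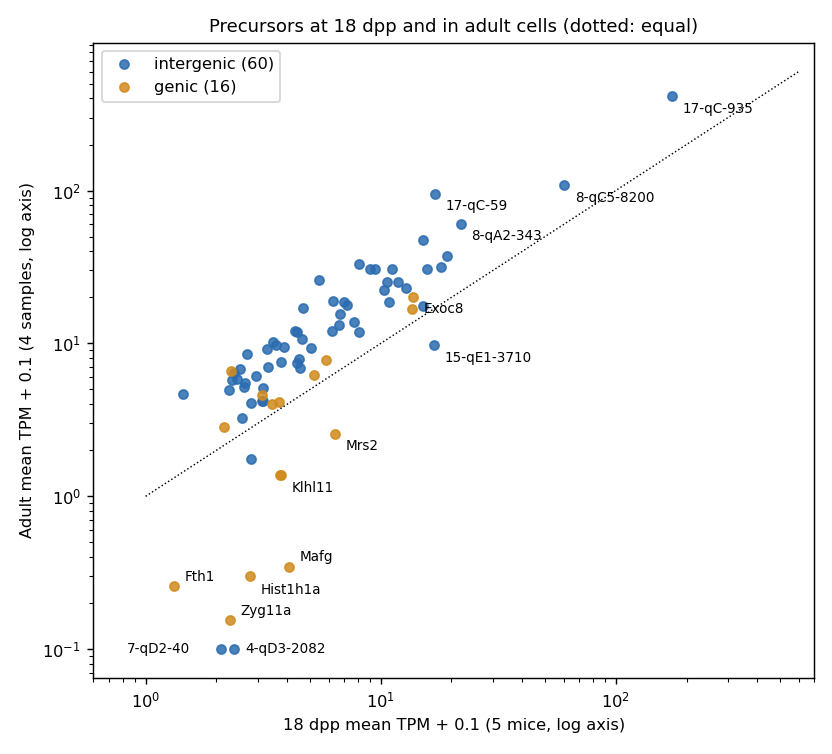
Mean TPM in the 4 adult samples against mean TPM in the 5 mice of 18 dpp, both plus 0.1 on log axes, for the 60 intergenic (blue) and 16 genic (orange) members, with equality as a dotted line. Most intergenic members lie above the line. The genic members Zyg11a, Mafg, Fth1, Hist1h1a, Klhl11, Mrs2 and Hinfp (not labelled) lie below it. At the bottom are pi-4-qD3-2082 and pi-7-qD2-40, listed at 0 in adult cells.

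Every adult sample stood below every 18 dpp mouse for 8 members, against 53.3% of all genes. They were the precursors of Klhl11, Hinfp, Zyg11a, Mrs2, Fth1 and Mafg, pi-17-qA3.3-27363 and pi-4-qD3-2082. Among them the precursor of Zyg11a had 2.19 ± 0.22 TPM at 18 dpp and 0.055 ± 0.0129 TPM in adult cells, a ratio of 0.0252. The 2 members listed at 0 in all adult samples read 3.72, 0.2, 2.48, 3.22 and 1.81 TPM (pi-4-qD3-2082) and 0, 1.26, 0, 5.72 and 3.01 TPM (pi-7-qD2-40) at 18 dpp.

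Of the 138 precursors outside the juvenile table, 38 rose and 26 fell from 8 to 18 dpp in the fit without a filter. In that fit 14.9% and 15.8% of all 60085 genes did. These included the 20368 genes of the juvenile table, of which 31.8% rose and 36.3% fell in their own fit. The matching shares of genes below 3 TPM were not counted. Of the 138 precursors, 5 were at 0 in every mouse. The 26 that fell were 25 genic precursors and pi-2-qE5-4. Among them were the precursors of Kcng3, a potassium channel subunit, at 1.37 and 0.364 TPM, and of Acvr2b, an activin receptor, at 1.49 and 0.686 TPM, which fell by 0.8 and 0.56 on the log2(TPM + 1) scale (adjusted p = 2.02e-07 and 1.95e-05, limma). In adult cells 11 of the 138 had a mean of at least 3 TPM, so that 76 of all 214 precursors did, against 15.4% of the genes of the adult table. Of these 76, 65 were members. The 11 included both precursors just below the level of the juvenile table, pi-3-qA3-2052 at 5.39 ± 0.121 TPM and that of 1700006A11Rik at 5.08 ± 0.342 TPM. The highest of the 11, pi-14-qA3-284, read 0.97, 40.7, 0.65 and 1.13 TPM, so its mean rests on adult sample 2.

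A list of 23 genes that make or use piRNAs was set beside the precursors, and all 23 were in the juvenile table. From 8 to 18 dpp 19 of them rose and 3 fell, where 31.8% and 36.3% of all genes did. The regulator Mybl1 read 12.1, 11.8 and 12.8 TPM at 8 dpp and 58.7, 50.7, 47.9, 39.6 and 41.6 TPM at 18 dpp without overlap, a rise of 1.87 on the log2(TPM + 1) scale (adjusted p = 5.61e-12, limma). It rose into 12 dpp (0.65, adjusted p = 2.67e-04, limma) and into 18 dpp (0.72, adjusted p = 2.66e-05, limma), while the step from 14 to 16 dpp did not pass (0.27, adjusted p = 0.103, limma). Tcfl5, a further regulator of pachytene precursors, had 32.4 ± 2.63 TPM at 8 dpp, 228 ± 53.5 TPM at 18 dpp and 589 ± 7.65 TPM in adult cells, and it rose into 16 dpp (1.06, adjusted p = 2.39e-06, limma). Btbd18, a regulator of a set of pachytene precursors, was the gene of the list that did not pass from 8 to 18 dpp, at 7.89 ± 1.31 and 11.7 ± 4.6 TPM (adjusted p = 0.15, limma), and had 0.362 ± 0.274 TPM in adult cells.

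Of the PIWI genes, Piwil1 (MIWI), whose protein binds pachytene piRNAs, had 2.55 ± 0.554 TPM at 8 dpp, 354 ± 53.3 TPM at 18 dpp and 634 ± 36.8 TPM in adult cells, and rose by 6.64 on the log2(TPM + 1) scale (adjusted p = 2.59e-17, limma). Piwil2 (MILI) was at 96.3 ± 6.33 TPM at 8 dpp and rose to 186 ± 5.67 TPM, whereas Piwil4 (MIWI2), known from fetal germ cells, fell from 6.8 ± 0.59 to 2.55 ± 0.817 TPM. The helicase Mov10l1, which binds precursors, rose from 77.5 ± 10.9 to 144 ± 11.6 TPM, and Pld6, a mitochondrial factor of piRNA production, from 26.9 ± 3.62 to 104 ± 18.6 TPM. The other genes that fell were Fkbp6, a cochaperone, and Pnldc1, the exonuclease that trims piRNAs, by 0.32 and 0.32 (adjusted p = 0.00306 and 0.00243, limma). The tudor gene Tdrd6 had the largest rise of the list, from 0.107 ± 0.0473 to 208 ± 103 TPM, 7.38 on the log2(TPM + 1) scale.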

How the data were processed

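Per the labels, polyadenylated RNA of germ cells from 28 juvenile mice and 4 enriched adult samples was sequenced. The authors aligned reads with Bowtie 1.0.0 to Ensembl, NONCODE and precursor transcripts and estimated TPM with RSEM 1.2.8. The deposited transcript table and adult gene table held TPM. The deposited juvenile gene table held a score, which summed transcripts showed to be exp(log2(TPM + 1)) - 1. It was turned back into TPM, although its unit had been planned as TPM. Its column of the authors' stage assignments was not used. Depth is unknown, and a strand setting is not given in the sources used here.

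Members and lists were chosen with earlier results of these data known. The 6 ages entered 1 limma 3.58.1 model (R 4.3.3) of log2(TPM + 1) with a mean-dependent prior variance and Benjamini-Hochberg adjustment over all genes. This scale understates changes of low genes. Sums, classes, hosts (GENCODE M21, GRCm38) and motifs were computed in Python 3.11.15. The fit was tested on simulated data.

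Named members were the 10 highest at 18 dpp, the 5 largest rises and all falls from 8 to 18 dpp, up to 6 of the largest steps by 14 dpp, the 5 highest in adult cells, the 3 highest at 8 dpp and those opposite to their host. Other precursors named were chosen after their values were seen. Alternatives were another pseudocount, no filter, a filter of 3 TPM in at least 3 mice, transcripts summed per gene and median-of-ratios factors. Others were one prior variance, fits of 2 ages, the replicate block and leaving out each sample. Markers of other cells summed, at 18 dpp and in adult cells, to 169 to 472 and 206 to 270 TPM (Leydig), 524 to 1030 and 5.57 to 10.7 TPM (peritubular), 39.7 to 78.6 and 3.56 to 5.46 TPM (macrophage), 31.8 to 65.2 and 1.43 to 3.09 TPM (endothelial) and 250 to 367 and 5.38 to 8.59 TPM (red blood cell).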

Additional observations from a re-analysis of the deposited data

Results flagged for a closer look

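Groups of 4 or 5 samples were examined for a sample far from the others, for the named members with a group mean of at least 3 TPM and for the members' sum. Chance marks about 1 in 20 such groups, and 3 of 73 were marked. At 16 dpp, pi-17-qC-935 had 132 TPM in mouse 1, with the other mice between 58 and 73 TPM, and this mouse had the highest summed spermatocyte markers of its age, with and without Ldhc. At 14 dpp, pi-8-qC5-8200 had 4.74 TPM in mouse 2, with the others between 7.05 and 7.7 TPM. In the same mouse the precursor of Exoc8 had 8.06 TPM, with the others between 11.1 and 12 TPM, and its spermatocyte markers summed to 587 TPM, against 755 to 901 TPM in the others (541 against 690 to 792 TPM without Ldhc). The part of cell composition in these values was not tested.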

How the results depend on the processing

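No change of a member from 8 to 18 dpp reversed under any alternative run. The counts of 66 members higher and 4 lower at 18 than 8 dpp stayed within 1.5 times under the alternatives on the members. Of the members, 12 reached 3 TPM in 1 mouse only. The 59 with 3 TPM in at least 3 mice gave 49 higher and 4 lower. Only the inclusion of all precursors moved the counts by more, to 104 and 30. That inclusion also gave 129 differing among the ages, 97 higher at 18 than 16 dpp, 1 lower at 18 than 16 dpp, 1 lower at 10 than 8 dpp, 4 lower at 12 than 10 dpp and 0 higher at 14 than 12 dpp, with more genes tested by construction. The early counts depended on the settings. With a pseudocount of 0.1, 30 members were higher at 12 than 10 dpp and 5 at 14 than 12 dpp. With only the 2 ages in the fit, 29 were higher and 0 lower at 12 than 10 dpp, and 0 higher at 14 than 12 dpp. Median-of-ratios factors gave 1 higher at 14 than 12 dpp and 1 lower at 16 than 14 dpp, and one prior variance gave 1 lower at 18 than 16 dpp. The cause was not tested. These factors moved the median of all genes from -0.09 to 0.05 between 8 and 18 dpp and from -0.11 to 0.03 between 16 and 18 dpp. With only the 2 ages, pi-1-qE3-706, pi-7-qD2-40, pi-10-qA3-2592 and pi-7-qD2-24830 lost their rise from 8 to 18 dpp (adjusted p = 0.110, 0.136, 0.0672 and 0.108, limma).

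The replicate block gave 0 higher at 14 than 12 dpp and 1 lower at 16 than 14 dpp, and moved no other count by over 1.5 times. Replicate numbers did not pair the mice: over 57 same-numbered pairs of different ages, residuals correlated between -0.25 and 0.25, and 8 of 28 mice correlated best with a mouse of their own number.

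As each mouse was left out in turn, the members differing among the ages numbered 69 to 72. Higher at 18 than 8 dpp were 66 in every case and lower 3 to 4, the 3 being without 8 dpp mouse 2. Higher at 12 than 10 dpp were 9 to 14 and lower 1 to 2 (1 without 10 dpp mouse 1 or 12 dpp mouse 1 or 2). Higher at 14 than 12 dpp were 0 to 5, with 0 without 12 dpp mouse 1 or 4 or any 14 dpp mouse but mouse 2, 4 without 14 dpp mouse 2 or 16 dpp mouse 1 or 3, 5 without 12 dpp mouse 3, 3 without 18 dpp mouse 5, and 1 without most others. Higher at 16 than 14 dpp were 53 to 56 and lower 1 to 3 (1 without 14 dpp mouse 6 or 16 dpp mouse 2, 4 or 5). Higher at 18 than 16 dpp were 61 to 64 and lower 0 to 1 (1 without 12 dpp mouse 1, 16 dpp mouse 4 or 18 dpp mouse 4). The members' sum at 18 dpp was 662 to 744 TPM, and the members with an adult mean of 3 TPM or more 65 to 66. Depth cannot be judged from TPM, and levels near 0 are limited by it.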
